A study of Mus musculus with 8 samples.

Results

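The connexin genes of mouse chromosome 4 were looked up by name among the RefSeq genes of GRCm38.p6, which is mm10. Of the 4 names listed (Gjb5, Gja4, Gja9 and Gja10), 3 belong to protein-coding genes of chromosome 4, out of 1301 measured protein-coding genes in all. Gja9 is no symbol of a chromosome 4 gene in that table. The name stands there as an older name of Gjd2, which lies on chromosome 2 (114009601 to 114014378), so Gja9 was not analysed here. Gja4 (gene ID 14612) lies at 127311420 to 127314039 and Gjb5 (14622) at 127354809 to 127358164. Gja10 (14610) lies alone, far from both and at lower coordinates, at 32600865 to 32602382. Gja4 and Gjb5 count as clustered, because each has another listed connexin gene within 500 kb, and Gja10 as lone.

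Connexins are the subunits of gap junctions. Rings of connexins in the membranes of touching cells dock to form channels, through which ions and small metabolites pass directly from cell to cell. Gja4 encodes the connexin Cx37, known from vascular endothelium and from the contacts between the oocyte and its follicle cells. Gjb5 encodes Cx31.1, known from stratified epithelia such as the epidermis and from the placenta, and Gja10 encodes Cx57, known from the horizontal cells of the retina. Replication timing describes when in S phase a stretch of DNA is copied. It is organised in domains of many genes, and early domains tend to be rich in genes.

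Repli-seq was run on mESC, mouse embryonic stem cells, with JM8N4 cells as the control and cells labelled as carrying a deletion of a Klf4 enhancer, an element of a pluripotency factor gene of the same chromosome. Newly made DNA was marked with BrdU for 2 h in both genotypes, cells were sorted into early and late S phase, and 8 libraries gave 4 timing profiles, control 1 and 2 and deletion 1 and 2. The labels do not say whether the profiles of a genotype came from separate cultures or clones, so all p-values and SDs measure only the spread between these profiles, which may be technical. The labels also leave out the size and position of the deletion and whether both alleles carry it. A timing score has no unit here, and higher scores stand for earlier replication: protein-coding genes lay at 15.1 per Mb where the mean score was above 0 and at 2.92 per Mb where it was below. The scores come without read counts, so the depth behind them is unknown, and DNA profiles give no RNA levels by which the labelled cell type could be checked.

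The 3 genes lie on the minus strand, so their promoters face higher coordinates. The 250 bases before each start (RefSeq, GRCm38.p6) are shown because both the clustered and the lone genes are small, of 1 to 2 bins of 5 kb, and the promoter falls in or next to the same bins whose scores are given below. Capitals mark CpG dinucleotides.
Gja4, chr4:127314040-127314289, minus strand: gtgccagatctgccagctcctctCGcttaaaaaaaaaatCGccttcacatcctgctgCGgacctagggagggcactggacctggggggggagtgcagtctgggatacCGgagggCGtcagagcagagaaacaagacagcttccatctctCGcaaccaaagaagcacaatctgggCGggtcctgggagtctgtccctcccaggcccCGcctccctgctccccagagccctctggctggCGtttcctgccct
Gjb5, chr4:127358165-127358414, minus strand: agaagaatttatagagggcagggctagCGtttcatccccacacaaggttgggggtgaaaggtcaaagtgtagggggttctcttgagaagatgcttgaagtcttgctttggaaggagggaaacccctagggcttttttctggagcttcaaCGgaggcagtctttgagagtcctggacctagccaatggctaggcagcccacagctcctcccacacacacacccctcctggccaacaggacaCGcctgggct
Gja10, chr4:32602383-32602632, minus strand: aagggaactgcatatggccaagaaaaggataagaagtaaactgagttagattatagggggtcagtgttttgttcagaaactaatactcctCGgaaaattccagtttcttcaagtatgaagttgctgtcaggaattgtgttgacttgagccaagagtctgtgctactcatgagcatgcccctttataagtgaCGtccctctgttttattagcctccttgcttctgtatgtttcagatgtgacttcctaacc

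The Gja4 promoter holds 9 CpG in 250 bases with a GC content of 61.2%, the Gjb5 promoter 3 with 54.4%, and the Gja10 promoter 2 with 41.2%. The median of 32851 mouse promoters of the same length was 6 CpG and 52.4% GC. The letters CACCC, the core of the sequence that KLF factors bind, were searched on both strands. They occur 2 times in the Gjb5 promoter and are not in the Gja4 and Gja10 windows, and 52.0% of all promoters hold them. TATAAA, the core of a TATA box, occurs once on either strand in the Gjb5 and Gja10 promoters and not in that of Gja4, and 12.4% of all promoters hold it.

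All 3 connexin genes replicated early in every profile. Gja10, the retinal connexin gene, scored 2.73 and 3.01 in control 1 and 2, against 2.55 and 3.33 with the deletion (1 and 2). Deletion 1 was the lowest and deletion 2 the highest profile, so the genotypes overlapped. Gja4, the endothelial and oocyte connexin gene, scored 2.56 and 2.75 in the controls against 2.60 and 2.92 with the deletion. Gjb5, the epithelial and placental connexin gene, scored 2.42 and 2.56 in the controls against 2.43 and 2.87 with the deletion. In both clustered genes the genotypes overlapped as well. In all 3 genes the number 2 profile was higher than the number 1 profile of its genotype. The median score of the whole chromosome had the same order. It was -0.79 and -0.37 in control 1 and 2, against -0.73 and -0.21 with the deletion. In control cells Gja10 replicated earlier than 74.3% of the measured protein-coding genes of the chromosome, Gja4 than 58.7% and Gjb5 than 50.04%.

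**Figure D1:**
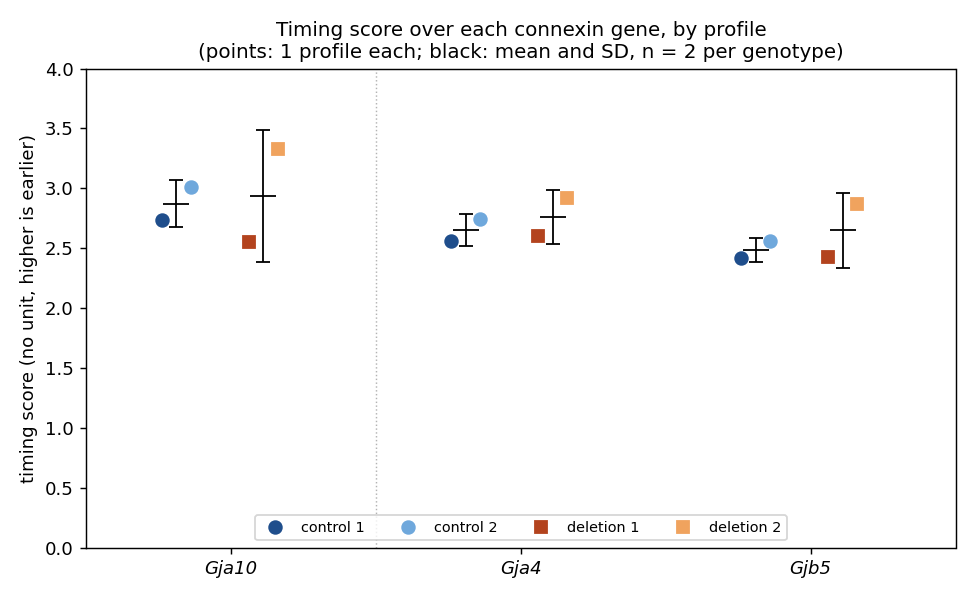
Timing score (vertical axis, without unit) averaged over Gja10, Gja4 and Gjb5 in the 4 profiles, with the mean and SD of each genotype (n = 2). All 3 genes lie above 2 in every profile, and the widest spread is that of the Gja10 deletion profiles, 2.55 and 3.33.

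The genotype means of each gene differed by less than the SE of the difference. Gja10 averaged 2.87 ± 0.20 in the controls against 2.94 ± 0.55 with the deletion, Gja4 2.65 ± 0.13 and 2.76 ± 0.22, and Gjb5 2.49 ± 0.10 and 2.65 ± 0.31 (mean ± SD of n = 2). The difference, deletion minus control, was 0.06 (SE 0.35) for Gja10, 0.11 (SE 0.34) for Gja4 and 0.16 (SE 0.34) for Gjb5. The median difference of all bins of the chromosome was 0.16, and relative to it the 3 genes differed by -0.09, -0.04 and 0.01 in the same order. Median centring gave -0.05 and quantile normalization -0.11 for Gja10, so its sign turned, and the latter gave -0.05 for Gja4. For Gja10 deletion 1 minus control 1 was -0.18 and deletion 2 minus control 2 was 0.31, of opposite signs.

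None of the 3 genes passed the test between genotypes (limma, adjusted p = 0.999 for each), nor with exact two-sided permutation over the 4 profiles (p = 1 for Gja10 and 0.667 for Gja4 and Gjb5, where 0.333 is the smallest possible). Over the whole table limma called 0 of 1301 genes, or 0%, with 17 at an unadjusted p under 0.05. No listed connexin gene had both deletion profiles above both controls, which 15.1% of all genes had, or both below, which 6.53% had. Without deletion replicate 2 the differences were -0.32 for Gja10, -0.05 for Gja4 and -0.06 for Gjb5, without deletion replicate 1 they were 0.45, 0.27 and 0.38, and without control replicate 1 that of Gja10 was -0.08. Each of these values mixes genotype with replicate number.

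The clustered genes scored below the lone one. The mean of Gja4 and Gjb5 minus Gja10 was -0.25 and -0.36 in control 1 and 2, against -0.03 and -0.43 with the deletion (1 and 2), a mean of -0.27 ± 0.17 (SD over the 4 profiles). The lone gene was the earlier one in 4 of 4 profiles, with the smallest gap in deletion 1. An exact two-sided sign-flip permutation over the 4 profiles gave p = 0.125, the smallest it can give, so the design cannot reach the threshold of 0.05. The gap averaged -0.30 ± 0.08 in the controls against -0.23 ± 0.28 with the deletion (mean ± SD of n = 2), a difference of 0.07 that was smaller than the spread (exact permutation p = 1). Deletion 1 minus control 1 gave 0.21 for the gap and deletion 2 minus control 2 gave -0.07.

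From the earliest to the latest the order of mean scores was Gja10, Gja4 and Gjb5. Gja4 lay below Gja10 in 3 of 4 profiles, by a mean of -0.20 ± 0.19, and above it in deletion 1 by 0.06, a mean difference about as large as its SD. Gjb5 lay below Gja4 in 4 of 4 profiles, by -0.14 ± 0.06, and below Gja10 in 4 of 4, by -0.34 ± 0.16 (SD over the 4 profiles). The exact two-sided sign-flip permutation p, adjusted over the 3 pairs by Benjamini-Hochberg, was 0.188 for both pairs with Gjb5 and 0.25 for Gja4 with Gja10. Before adjustment that test gave 0.125 for both pairs with Gjb5, the smallest it can give, so no pair could reach 0.05. Gja4 and Gjb5 lie a few bins apart and adjacent bins have like scores, so their values are not independent.

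The connexin cluster sits near the end of a long early domain. The run of bins above 0 that holds it measured 4930 and 4975 kb in control 1 and 2, against 4910 and 5025 kb with the deletion (1 and 2). It ended 277 and 302 kb above Gjb5 in the controls against 267 and 337 kb above it with the deletion. The genotypes overlapped, with the nearest and the farthest end both in deletion profiles. In the 500 kb below the cluster lie 8 protein-coding genes, all above 0 in every profile, with mean scores from 2.13 (Sfpq, a splicing factor gene) to 3.18 (AU040320). The 500 kb above it hold no protein-coding gene.

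Both sides of the cluster differed strongly. The 500 kb below Gja4 scored 2.53 and 2.87 in the controls against 2.78 and 2.71 with the deletion, close to the gene itself. The 500 kb above Gjb5 scored 0.16 and 0.65 in the controls against 0.10 and 1.24 with the deletion. Every profile was thus later above than below the cluster, and deletion 2 was the highest on the upper side. In steps of 100 kb above the cluster the control mean fell from 2.48 to 1.63, 0.48, -0.86 and -1.70, and the deletion mean from 2.77 to 2.30, 0.97, -0.84 and -1.85. CK137956, the next protein-coding gene, begins 569 kb above Gjb5 and was late, at -2.25 ± 0.52 in the controls against -2.59 ± 0.49 with the deletion (mean ± SD of n = 2).

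**Figure D2:**
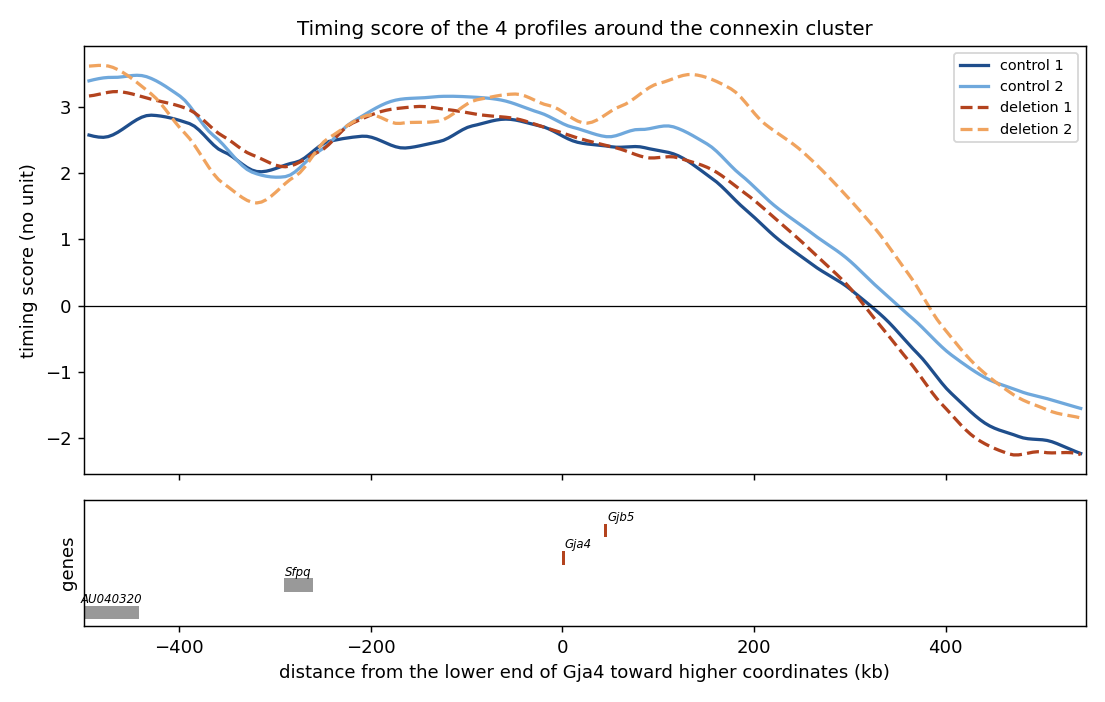
Timing score (vertical axis, no unit) of the 4 profiles in 5 kb bins against distance in kb from the lower end of Gja4, with the genes named in the text below and Gja4 and Gjb5 in red. The scores stay above 1.5 below the cluster and cross 0 between 267 and 337 kb above Gjb5, and deletion 2 runs above the other profiles over the first 300 kb above it.

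The fall above the cluster was measured as the largest drop over 100 kb within the upper flank, a measure chosen after the profiles were seen. It was -1.54 and -1.35 in control 1 and 2, against -1.82 and -2.00 with the deletion (1 and 2). Both deletion profiles fell more steeply than both controls, by -0.46 in the mean (exact two-sided permutation p = 0.333, the smallest possible). After quantile normalization the difference was -0.38 and the genotypes still did not overlap. The number of genes or regions elsewhere with such a difference in steepness was not measured. In the bins of the cluster and its flanks the 2 genotypes overlapped everywhere: 0 of 208 bins had both deletion profiles above both controls and 0 had both below. Of all bins of the chromosome 16% and 5.86% did. The highest difference there was 0.70, at 127540000, where control scored 0.94 and 1.40 and deletion 1.21 and 2.54, so it rested on deletion 2.

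Gja10 lies at the rim of a dip in an early domain, with the steps of its flanks in the reverse order of those of the cluster. The 500 kb below it scored 1.04 and 1.26 in the controls against 1.19 and 1.73 with the deletion, and the 500 kb above it 2.65 and 3.12 in the controls against 2.69 and 3.26 with the deletion. The lower flank is filled mostly by Bach2, a transcriptional repressor gene of the B cell lineage, which ends 14.8 kb below Gja10. Bach2 averaged 1.20 ± 0.23 in the controls against 1.49 ± 0.55 with the deletion, while Casp8ap2, a histone mRNA processing gene 13.1 kb above Gja10, averaged 2.84 ± 0.38 and 2.99 ± 0.58 (mean ± SD of n = 2). Gja10 thus scored nearer to Casp8ap2 than to Bach2 in every profile. The 7 protein-coding genes of the upper flank were above 0 in every profile, with mean scores from 2.82 (Lyrm2) to 3.21 (Gabrr2, a GABA receptor subunit gene).

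The lowest score within 500 kb of Gja10 was -0.06 and 0.45 in control 1 and 2, against 0.20 and 0.99 with the deletion (1 and 2). Control 1 alone crossed 0 there. Its run of bins above 0 around Gja10 therefore began 271 kb below the gene, against 716 kb in control 2 and 701 and 716 kb with the deletion. Control 1 also had the lowest median score of the chromosome, -0.79, against -0.37 in control 2 and -0.73 and -0.21 with the deletion. The runs were not measured after median centring. On the upper side the run ended 1138 and 1278 kb above the gene in the controls against 1098 and 1268 kb with the deletion.

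**Figure D3:**
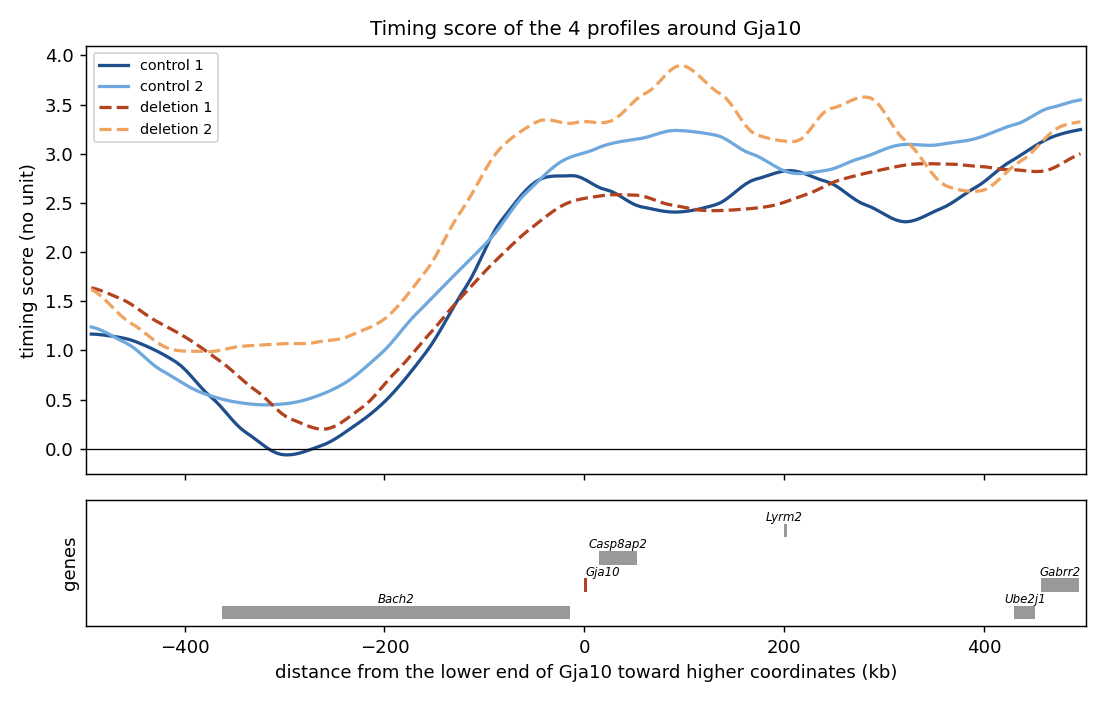
Timing score (vertical axis, no unit) of the 4 profiles in 5 kb bins against distance in kb from the lower end of Gja10, with the genes named in the text below and Gja10 in red. All profiles rise from a dip below Gja10, with lowest scores of -0.06 to 0.99, to the level of Gja10, 2.55 to 3.33.

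In 1 stretch on each side of Gja10 the genotypes did not overlap. Of the 199 bins of Gja10 and its flanks 37, or 18.6%, had both deletion profiles above both controls, where the chromosome had 16%, and 9, or 4.52%, had both below, where it had 5.86%. These shares are near the background. The 37 bins form 1 run from 32105000, the first bin of the 500 kb flank, to 32289999, within the lower end of Bach2. The run starts at the edge of the flank, so its full extent was not measured. Within the flank it scored 0.71 and 0.75 in the controls against 1.12 and 1.14 with the deletion, a difference of 0.40 in a run that was picked by its values. After median centring the difference was 0.29 and after quantile normalization 0.20, and the genotypes then overlapped. The 9 bins form 1 run from 33015000 to 33059999, with a difference of -0.28. By limma 0 of 30659 bins of the chromosome were called, or 0%, where 299 had an unadjusted p under 0.05, none of them among the bins of the cluster or of Gja10 and their flanks.

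Each connexin gene was earlier than the mean of its own 500 kb flanks. The share of all genes for which this holds was not counted. Gja4 and Gjb5 have largely the same flanks, so they are not separate cases. Gene minus flank was 0.85 ± 0.04 in the controls against 0.72 ± 0.16 with the deletion for Gja10, 0.90 ± 0.14 and 0.85 ± 0.15 for Gja4, and 0.95 ± 0.17 and 0.97 ± 0.06 for Gjb5 (mean ± SD of n = 2). The genotypes overlapped in all 3. The differences were -0.13, -0.05 and 0.02 (limma, adjusted p = 0.970, 0.978 and 0.980), and limma called 0 of 1301 genes for this measure, or 0%, with 33 at an unadjusted p under 0.05. The signs for Gja4 and Gjb5 turned with the flank size, to 0.04 for Gja4 with 1 Mb and to -0.14 for Gjb5 with 250 kb. Each gene scored nearer to the earlier of its 2 flanks. Gja4 minus its lower flank was -0.05 ± 0.10 in control, Gjb5 minus its lower flank -0.18 ± 0.10, and Gja10 minus its upper flank -0.01 ± 0.13 (mean ± SD of n = 2).

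The flanks as a whole scored 2.02 ± 0.24 in the controls against 2.22 ± 0.39 with the deletion for Gja10, 1.75 ± 0.28 and 1.92 ± 0.37 for Gja4, and 1.53 ± 0.27 and 1.68 ± 0.38 for Gjb5 (mean ± SD of n = 2). The genotypes overlapped in each gene's flank, and the differences of 0.20, 0.17 and 0.14 did not pass the test (limma, adjusted p = 0.9995 for each). Of all genes 0% had a called flank, with 2 at an unadjusted p under 0.05. In 8.84% of all genes both deletion flanks lay above both controls and in 2% both below, and none of the 3 connexin genes was among them. The mean flank of the clustered genes minus that of Gja10 was -0.40 and -0.35 in the controls against -0.40 and -0.43 with the deletion, so the lone gene had the earlier flank in 4 of 4 profiles (exact two-sided sign-flip permutation p = 0.125, the smallest possible). To 3 decimals these gaps were -0.399 and -0.354 against -0.405 and -0.434, so the genotypes did not overlap, with a difference of -0.043 (exact two-sided permutation p = 0.333, the smallest possible). The split is narrow, as deletion 1 minus control 1 was only -0.0055. How often other sets of genes show such a split in this gap was not measured. The upper minus the lower flank in control was -1.90 for Gja4, -2.26 for Gjb5 and 1.73 for Gja10, against a median size of 0.52 over all genes. A larger step between the flanks was found for 17.0%, 13.1% and 19.1% of all genes. For Gja10 this step was 1.61 and 1.85 in the controls against 1.497 and 1.533 with the deletion, without overlap, and for Gja4 and Gjb5 the genotypes overlapped. Gja10 minus its lower flank was 1.69 and 1.75 in the controls against 1.36 and 1.60 with the deletion, also without overlap (exact two-sided permutation p = 0.333 for both, the smallest possible). Of all genes 36% had no overlap, in either direction, in the step between the flanks and 32.3% in gene minus lower flank, so such a split was common.

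**Figure D4:**
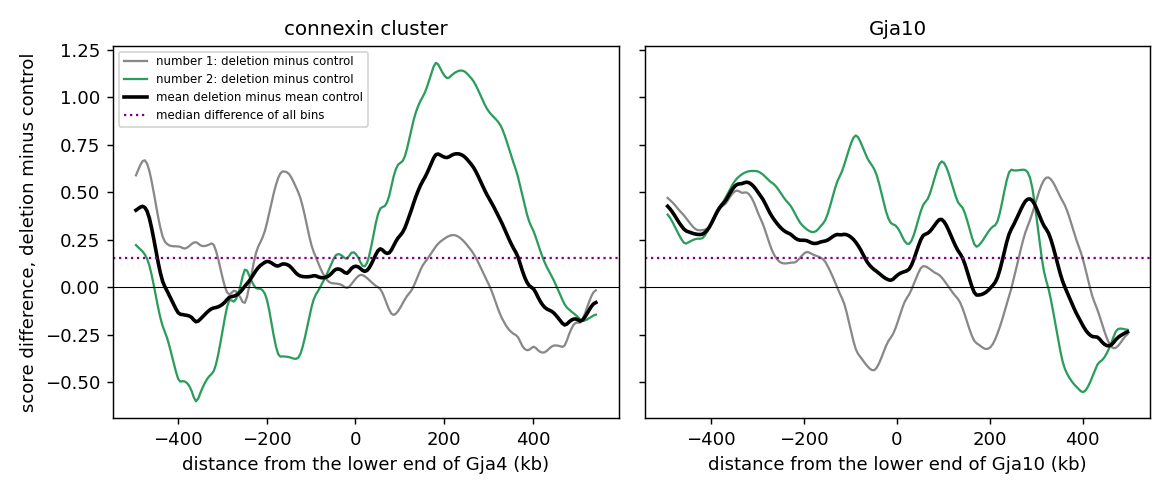
Score difference, deletion minus control (vertical axis, no unit), in 5 kb bins against distance in kb from the lower end of Gja4 (left) and of Gja10 (right). Grey and green lines are the differences between profiles of number 1 and of number 2, the black line is the difference of the genotype means, and the dotted line is the median of all bins, 0.16. The mean peaks at 0.70 above the cluster.

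Genes with the profile most like each connexin gene were taken by the smallest root mean square difference over the 4 profiles among protein-coding genes over 2 Mb away. For Gjb5 these were Errfi1, a feedback inhibitor gene of EGF receptor signalling, at 0.048, and Car6, a secreted carbonic anhydrase gene, at 0.077. For Gja4 they were Acer2, an alkaline ceramidase gene, at 0.041, and Hes2, a basic helix-loop-helix repressor gene, at 0.047. For Gja10 they were Fbxo10 at 0.062 and Oscp1 at 0.063. The median over the genes compared was 0.56, 0.49 and 0.48 in the same order. Errfi1 scored 2.42 and 2.57 in the controls against 2.51 and 2.82 with the deletion, which lies within 0.1 of Gjb5 in every profile.

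Other genes of cell contacts were taken as a list of 11, all measured. By limma 0 rose and 0 fell, so 11 of 11 missed the threshold, with 0 at an unadjusted p under 0.05. Of all 1301 genes limma likewise called 0, with 17 at an unadjusted p under 0.05. Of the 11 listed genes 8, or 72.7%, were above 0 in every profile and 2 below 0 in every profile. Among all genes 79.7% were above 0 in every profile. Tln1, the talin gene of integrin adhesions, and Epb41, a membrane skeleton gene, had the highest means over the 4 profiles, at 3.02 ± 0.15 and 2.98 ± 0.45 in the controls against 3.27 ± 0.50 and 3.15 ± 0.54 with the deletion (mean ± SD of n = 2). Mpdz, a scaffold gene of tight junctions, and Ajap1, a gene of adherens junctions, had the lowest such means, at -1.11 ± 0.12 and -0.20 ± 0.07 in the controls against -1.38 ± 0.51 and -0.31 ± 0.20 with the deletion. In control the median score of the list was 2.79 and that of all genes 2.49. The median difference of the list was -0.08, that of the 3 connexin genes 0.11 and that of all genes 0.14. The sign for the list was not stable: its median difference was 0.26 without deletion replicate 1 and 0.076 without control replicate 2, while median centring gave -0.19 and quantile normalization -0.21.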

How the data were processed

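The deposited table holds timing scores, in 1 column per profile, scaled by the authors to a common interquartile range, as the deposited file's name says. That range was 4.60 in each profile, and the medians ran from -0.79 to -0.21. The submitters' processing notes name Bowtie2, SAMtools, bedtools (without versions) and mm10. The log base, the smoothing and the counting are not given in the sources used here. Of 31301 positions, 30659 had a value in every profile, and a position was read as the start of a 5 kb bin.

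Bins overlapping a gene were averaged as its score, and as its flank the bins within 500 kb on both sides. Genotypes were compared with limma 3.58.1 (lmFit, eBayes) in R 4.3.3 over all 1301 genes, their flanks, gene minus flank, and all bins. Tests were two-sided, Benjamini-Hochberg adjusted, at 0.05. The SE and adjusted p rest on a spread moderated over all features. Single values were compared by exact permutation over profiles. Promoters came from RefSeq, with 3 of the 3 genes matched. Named genes were the connexin genes, the nearest gene on each side, the highest and lowest gene of the flanks, the 2 most alike genes, and the 2 highest and 2 lowest of the contact list; some of the nearest genes are not reported here. The members and lists were chosen with earlier results of these data known.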

Additional observations from a re-analysis of the deposited data

How the results depend on the processing

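In no alternative was a difference between genotypes called for Gja4, Gjb5 or Gja10, their flanks or gene minus flank; the lowest adjusted p by limma was 0.339, for the Gja10 flank with the replicate block. With the replicate number as a block, limma called 93 flanks and 785 bins, and with median centring and the replicate block 12 and 715, but 0 genes in both. The number marks no stated pairing. Deviations of same-numbered profiles from their genotype means correlated at 0.64 over bins and 0.33 over genes. Limma's trend and robust options called 2 genes for gene minus flank. Leaving out single profiles gave 0 to 4 called genes, 0 to 1 flanks, 0 to 9 genes for gene minus flank and 0 to 57 bins, highest without deletion replicate 1 for the first 3 and without deletion replicate 2 for bins. In these fits a genotype has 1 profile, taken to vary like the other genotype.

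The gene difference of Gja10 was -0.046 with median centring, with or without the block, and -0.11 with quantile normalization, which gave -0.051 for Gja4. With single profiles left out it ranged from -0.32 to 0.45 for Gja10, -0.048 to 0.27 for Gja4 and -0.059 to 0.38 for Gjb5, and for the flanks from -0.081 to 0.48 for Gja10, -0.10 to 0.43 for Gja4 and -0.12 to 0.41 for Gjb5. Gene minus flank ranged from -0.16 to 0.048 for Gja4 and -0.10 to 0.14 for Gjb5, and was 0.038 for Gja4 with a flank of 1 Mb and -0.14 for Gjb5 with 250 kb. For Gja10 it stayed negative in all 12 alternatives, from -0.24 to -0.02. Some of these could not change it: with the replicate block, median centring, both together, or limma's trend and robust options it stayed at -0.13.

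The clustered genes stayed below Gja10 in all alternatives, from -0.35 without deletion replicate 1 to -0.20 without Gjb5. Median centring is among these and cannot change the gap. The genotype difference of that gap ranged from -0.13 to 0.27 with single profiles left out and was -0.070 within number 2. The causes were not tested. The steepest fall and the run below Gja10 were added after seeing the data. The unknown depth and 2 profiles per genotype limit all comparisons.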

Other observations

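Among the 16 measured genes in the flanks of the connexin genes, 1 had genotypes that did not overlap, singled out after its values were seen. Counting both directions, 15.1% of all genes had both deletion profiles above both controls and 6.53% both below, so 1 of 16 is no excess. Ube2j1, a gene for a ubiquitin-conjugating enzyme of the endoplasmic reticulum, begins 429 kb above Gja10. It scored 3.02 and 3.35 in the controls against 2.83 and 2.97 with the deletion, a difference of -0.29. Its neighbour Gabrr2, known as a retinal GABA receptor subunit gene, scored 3.19 and 3.49 in the controls against 2.90 and 3.25 with the deletion, where the genotypes overlapped. In the list of cell contact genes Ctnnbip1, which encodes an inhibitor of beta-catenin, was later in both deletion profiles, at 2.96 and 2.99 in the controls against 2.70 and 2.81 with the deletion. Of all genes 6.53% had both deletion profiles below both controls, and limma gave both Ube2j1 and Ctnnbip1 an adjusted p of 0.999.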
